A study of Homo sapiens with 8 samples.

Results

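The factors that end translation and those that carry out nonsense-mediated mRNA decay were followed at the RNA level in Hct116 cells, a human colorectal carcinoma line, treated with lenalidomide. The 9 genes described are GSPT1, GSPT2, ETF1, UPF1, UPF2, UPF3A, UPF3B, SMG1 and SMG5, chosen by symbol, with earlier results of these data known. GSPT1 is a protein that other ligands of cereblon cause to be degraded, and the others are its paralog, its partner and factors of the decay pathway. All 9 were found among the 23459 gene rows of the count table, and all 9 passed the filter on low counts that left 13925 genes to be tested. The control group was 4 libraries of cells given DMSO, the solvent of the drug, and the treated group was 4 libraries of cells given 30 µM lenalidomide, both collected at 16 h. Both groups were the unmodified parental line grown as an adherent monolayer, and no gene was deleted in either. In the study these cells also served a protein turnover experiment, in which the medium was exchanged for one with isotope-labelled amino acids as the drug or DMSO was given. For 2 of the 4 replicates of each group the labels were swapped, and which replicate numbers these are is not in the labels, so the direction of labelling cannot be told apart from other differences between replicates. Its sources call the 4 replicates technical in one place and biological in another, so the p-values measure the spread between these libraries, which may be technical.

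At a stop codon the ribosome takes up a complex of 2 proteins, the release factor eRF1, encoded by ETF1, which reads the stop codon and frees the peptide, and the GTPase eRF3, encoded by GSPT1 or by GSPT2. Where termination is slow or lies upstream of an exon junction complex, the RNA helicase UPF1 is recruited to the terminating ribosome, is joined by UPF2 and by UPF3A or UPF3B, and is phosphorylated by the kinase SMG1. Phosphorylated UPF1 attracts SMG5 and the endonuclease SMG6, which help bring about decay of the message. Lenalidomide binds cereblon, the substrate receptor of the ubiquitin ligase CRL4-CRBN, and turns it toward new protein substrates. The study names GSPT1 as a substrate that depends on an analogue of this drug class. The RNA measured here lies upstream of protein degradation, which was not measured for GSPT1 here.

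GSPT1 and GSPT2 are near copies of each other, and the stretch that cereblon ligands bring to the ligase is the one shown here because it holds the glycine at residue 575 of GSPT1, on which recognition depends. The stretches below are 90 coding bases each, 5′ to 3′, from GENCODE transcripts on GRCh37, with the bases that differ between the pair in capitals.
GSPT1: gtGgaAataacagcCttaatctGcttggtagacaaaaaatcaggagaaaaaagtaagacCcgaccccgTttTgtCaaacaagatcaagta
GSPT2: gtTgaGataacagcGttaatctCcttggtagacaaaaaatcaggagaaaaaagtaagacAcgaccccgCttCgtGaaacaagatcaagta
The GSPT1 stretch spans the end of exon 13 (chr16:11969943-11969954, minus strand) and the start of exon 14 (chr16:11969709-11969786) of its 15 exons. The GSPT2 stretch lies in the single exon of that gene (chrX:51488376-51488465, plus strand). The pair differed at 8 of 90 bases there, and the glycine codon, bases 43 to 45 of the stretch, was GGA in both. Over the coding sequence 88.5% of aligned bases were identical, 1638 of 1851. Of the 50-base windows of their annotated transcripts, GSPT1 and GSPT2 shared none, so a read of at least that length with no mismatch can be placed on 1 of them.

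A second pair is shown because the count of SMG1 has to be read beside that of its pseudogene copies on chromosome 16. The stretches are 90 bases each from the middle of the aligned region of SMG1 and its copy SMG1P3, with differing bases in capitals.
SMG1: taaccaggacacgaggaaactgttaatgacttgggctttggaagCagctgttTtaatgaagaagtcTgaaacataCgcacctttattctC
SMG1P3: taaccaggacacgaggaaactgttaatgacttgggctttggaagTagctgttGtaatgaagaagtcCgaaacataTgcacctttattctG
The SMG1 stretch covers coding parts of exon 15 (chr16:18883506-18883520, minus strand) and exon 16 (chr16:18882730-18882804) of 63 exons. The SMG1P3 stretch covers exon 15 (chr16:21471101-21471115, minus strand) and exon 16 (chr16:21469886-21469960) of 29 exons. These stretches differed at 5 of 90 bases. Over the whole aligned region 4130 of 4223 bases were identical to SMG1P3, and the copies in the table ranged from 97.8% to 98.1% identity with SMG1.

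On GRCh37, to which the authors aligned their reads, GSPT1 lies at chr16:11961985-12009939 on the minus strand, and its exons overlap those of the small RNA gene AC007216.1 on the same strand. GSPT2 lies at chrX:51486538-51489328 on the plus strand and has 1 exon. ETF1 lies at chr5:137841784-137878925 on the minus strand with 11 exons. UPF1 lies at chr19:18942768-18979039 on the plus strand with 24 exons, and UPF2 at chr10:11962021-12085169 on the minus strand with 22 exons. UPF3A lies at chr13:115047076-115071292 on the plus strand with 10 exons, and UPF3B at chrX:118967985-118986961 on the minus strand with 11 exons. SMG1 lies at chr16:18816182-18937730 on the minus strand with 63 exons. SMG5 lies at chr1:156219015-156252616 on the minus strand with 22 exons. An exon of SMG1 overlaps that of a long noncoding RNA on the plus strand, and the counting used the default parameters of its package with no strand setting named, so reads of that overlap cannot be told apart.

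Library totals were 35268940 to 37473413 counts with DMSO and 28218471 to 33659982 with lenalidomide, so that each treated library was smaller than each control library. Genes with at least 1 count numbered 16953 to 19568, with the highest number in lenalidomide replicate 4. The epithelial markers EPCAM, CDH1, KRT8, KRT18 and KRT19 were present in all 8 libraries, from 52.5 counts per 1000000 counts of the library (CPM) for the lowest value of CDH1 to 952 CPM for the highest of KRT19, and VIL1, which builds the brush border of enterocytes, had at most 2 counts in a library. Summed over the 9 markers of blood, stromal, endothelial, liver and glial cells, the level was 3.18 to 3.96 CPM with DMSO and 2.98 to 4.78 CPM with lenalidomide, most of it COL1A1, and PTPRC, CD3E, COL3A1, DCN, PECAM1 and GFAP were at 0 in at least 1 library.

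In these cells the release factor genes ETF1 and GSPT1 were the most abundant of the 9 and GSPT2 was the least. Levels of different genes are compared only per length, as counts per 1000 exonic bases and 1000000 counts of the library (RPKM), computed from the counts and the exonic widths. ETF1 was highest, at 114 ± 5.73 RPKM (SD, n = 8 libraries), and 96.3% of genes tested lay below it. GSPT1 followed at 59.0 ± 4.98 RPKM and GSPT2 was lowest of the 9 at 2.45 ± 0.305 RPKM, with 91.8% and 31.4% of genes tested below them. ETF1 lay above GSPT1, and GSPT1 above UPF2, the next gene in the order, in 8 of 8 libraries.

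The genes of the decay pathway lay between these. UPF2, the bridge between UPF1 and UPF3, had 24.0 ± 1.46 RPKM, SMG5 had 23.1 ± 1.15, UPF3B had 20.6 ± 2.10, SMG1 had 17.2 ± 3.61 and UPF1 had 14.6 ± 0.696 RPKM (SD, n = 8). Each of these overlapped in its range with the next in the order, though UPF1 lay wholly below UPF2, SMG5 and UPF3B: UPF2 exceeded SMG5 in 6 of 8 libraries, SMG5 exceeded UPF3B in 7 of 8, UPF3B exceeded SMG1 in 6 of 8 and SMG1 exceeded UPF1 in 6 of 8. UPF3A, at 6.72 ± 0.657 RPKM, lay below UPF1 and above GSPT2 in 8 of 8 libraries. The levels of UPF3A and SMG1 are less certain, as 42.4% and 18.9% of their 50-base windows occur in other genes. All levels also depend on the deposited exonic widths, which exceed the GENCODE transcripts by unlike amounts. The width was 6317 bases for UPF1, 3640 for UPF3A and 2404 for UPF3B, where their transcripts held 5272, 2321 and 2294 such windows. A window starts at nearly each base, so the place of UPF1 beside SMG1 and UPF3B is given for these widths only. The order of the 9 means was the same in 9 of 9 settings of scaling and libraries. Scaling moves all genes of a library alike and the other settings each left out 1 library, so these settings could change the order little. Neither the length nor the handling of shared reads was varied.

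**Figure D1:**
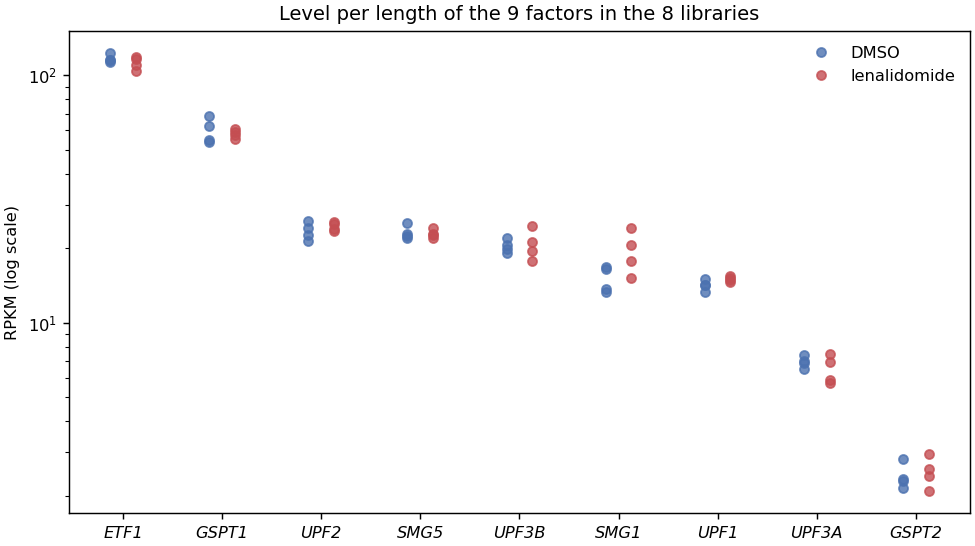
Levels of the 9 genes per length, in RPKM on a log axis, with a point for each of the 8 libraries coloured by treatment. ETF1 and GSPT1 stand above the other genes in every library, neighbours among UPF2, SMG5, UPF3B, SMG1 and UPF1 overlap, and UPF3A and GSPT2 lie below them.

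The comparison of lenalidomide with DMSO asked whether the drug moved the RNA of any of these factors at 16 h. None of the 9 passed the quasi-likelihood test of edgeR at 0.05 after Benjamini-Hochberg adjustment over all genes tested, with an adjusted p of 0.999 for each. At that threshold 2 of the 13925 genes passed, which is 0.0144%. At an unadjusted p under 0.05, 1 of 9 was higher with lenalidomide, SMG1, and 0 of 9 were lower, against 3.26% of all genes higher and 0.919% lower. DESeq2 and the likelihood ratio test also called 0 of 9 at an adjusted p under 0.05. None of the 9 had groups that did not overlap, against 1.24% of all genes with every lenalidomide library above every DMSO library and 0.84% the other way round. The log2 fold change (lenalidomide over DMSO) was above 0 for 5 and below 0 for 4 of the genes, with a median of 0.027 where all genes tested had 0.0025.

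The libraries bound how large a change could have been missed. For the 8 genes other than SMG1 the 95% confidence interval around the log2 fold change held 0 and lay within ±0.5, from a lowest bound of -0.28 (0.825-fold) to a highest of 0.31 (1.24-fold). Sizes under 0.1 on the log2 scale were seen for 8 of 9 genes and for 71.9% of all genes. The spread between replicates beyond counting error, as a coefficient of variation, had a median of 7.8% over the 9 genes and of 7.41% over all genes tested.

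**Figure D2:**
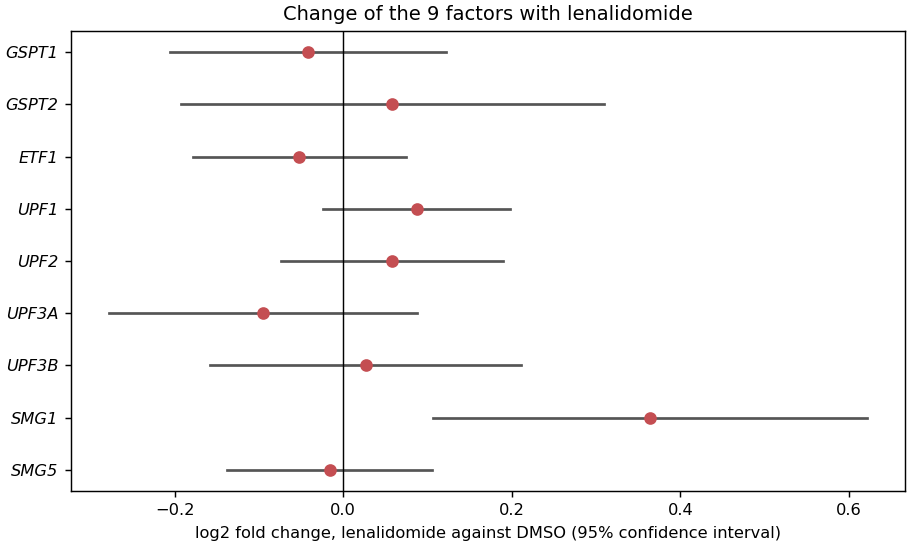
The log2 fold change of each of the 9 genes, lenalidomide over DMSO, as a point with its 95% confidence interval from edgeR's quasi-likelihood fit to 4 libraries a group. The interval of SMG1, 0.11 to 0.62, lies above 0 and those of the other 8 genes hold 0.

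GSPT1, the GTPase of the release complex, had 484.7, 416.2, 533.9 and 425.3 CPM in DMSO replicates 1 to 4 and 429.2, 460.8, 472.2 and 444.8 CPM in lenalidomide replicates 1 to 4. The lenalidomide values all lay inside the range of the DMSO values, which were the more spread of the pair of groups. The means were 465.0 ± 55.0 and 451.8 ± 18.7 CPM (SD, n = 4 each), which gave a log2 fold change of -0.042 with a standard error of 0.076. The 95% confidence interval ran from -0.20 to 0.12, or 0.868-fold to 1.09-fold. The two-sided exact permutation test of log2 CPM gave p = 0.743, where the smallest p that 4 against 4 libraries allow is 0.0286.

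ETF1, whose product eRF1 reads the stop codon, had 485.6, 473.9, 516.9 and 483.0 CPM with DMSO and 463.1, 489.3, 500.4 and 437.0 CPM with lenalidomide. The groups overlapped, with lenalidomide replicates 1 and 4 below each DMSO library and the other two inside the DMSO range. Its log2 fold change was -0.052 with a standard error of 0.059 and a confidence interval from -0.18 to 0.074. Of the 50-base windows of its transcripts 4.38% occur in other genes, mainly the pseudogene ETF1P2, which has no row in the count table.

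GSPT2, the intronless gene for the second eRF3 protein, had 8.0, 6.509, 6.659 and 6.123 CPM with DMSO and 7.262, 5.939, 8.389 and 6.827 CPM with lenalidomide. The lowest and the highest value were both in treated libraries. These values rest on 197 to 299 counts a library, and the log2 fold change was 0.058 with the widest interval of the genes other than SMG1, from -0.19 to 0.31.

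UPF1, the helicase at the centre of the pathway, had 89.53, 83.71, 94.75 and 89.67 CPM with DMSO and 96.12, 94.03, 92.62 and 97.13 CPM with lenalidomide. Lenalidomide replicates 1 and 4 lay above each DMSO library, and the other two inside the DMSO range. The means were 89.4 ± 4.51 and 95 ± 2.04 CPM (SD, n = 4 each), which gave a log2 fold change of 0.087 with a standard error of 0.052. The exact permutation test gave p = 0.0857.

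UPF2 had 147.3, 130.3, 156.5 and 138.0 CPM with DMSO and 143.2, 152.7, 154.7 and 144.9 CPM with lenalidomide. All 4 lenalidomide values lay inside the DMSO range, and the log2 fold change was 0.058 with an interval from -0.074 to 0.19. SMG5, the adaptor that binds phosphorylated UPF1 and recruits phosphatase and decay enzymes, had 104.2, 102.5, 115.8 and 100.8 CPM with DMSO and 110.2, 104.6, 100.3 and 103.3 CPM with lenalidomide. Only lenalidomide replicate 3 lay outside the DMSO range, just below it, and the log2 fold change was -0.016 with an interval from -0.14 to 0.11.

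The paralogs UPF3A and UPF3B, which join UPF2 to the exon junction complex, share 69.5% of 627 aligned coding bases. UPF3A had 25.02, 25.57, 26.84 and 23.67 CPM with DMSO and 27.30, 25.20, 20.70 and 21.38 CPM with lenalidomide. Lenalidomide replicates 3 and 4 lay below each DMSO library and replicate 1 above each. UPF3B had 47.60, 49.65, 52.92 and 46.13 CPM with DMSO and 51.06, 59.24, 46.96 and 42.52 CPM with lenalidomide, with the highest value in treated replicate 2 and the lowest in treated replicate 4. The log2 fold changes were -0.095 for UPF3A, with an interval from -0.28 to 0.087, and 0.027 for UPF3B, with an interval from -0.16 to 0.21. In UPF3A 42.4% of 50-base windows occur in other genes, mainly in the pseudogene UPF3AP2, which has no row in the table, so its count is less certain than that of UPF3B, none of whose windows are shared.

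SMG1, the kinase that phosphorylates UPF1, had 222.6, 215.8, 274.6 and 268.4 CPM with DMSO and 289.3, 247.5, 335.0 and 391.5 CPM with lenalidomide. Lenalidomide replicates 1, 3 and 4 lay above each DMSO library, and replicate 2 lay inside the DMSO range. The means were 245.4 ± 30.4 and 315.8 ± 61.9 CPM (SD, n = 4 each). The log2 fold change was 0.36 with a standard error of 0.12 and an interval from 0.11 to 0.62, or 1.08-fold to 1.54-fold. The quasi-likelihood test of edgeR gave an unadjusted p of 0.0089 and, after Benjamini-Hochberg adjustment, an adjusted p of 0.999, and the exact permutation test gave p = 0.114. SMG1 was also the most variable of the 9, with a coefficient of variation between replicates of 12%, which 16.1% of all genes tested exceeded.

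The height of SMG1 differed between the treated libraries. Relative to the DMSO mean its log2 level was 0.24, 0.013, 0.45 and 0.67 in lenalidomide replicates 1 to 4. Without replicates 3 and 4 together, a choice made after seeing the data, its log2 fold change was 0.13. The unadjusted p was then 0.236 in the quasi-likelihood test of edgeR. Those were its highest libraries, so leaving them out lowers the value in any case and tests nothing. Leaving out 1 library at a time kept the log2 fold change between 0.24 and 0.46, the lowest without lenalidomide replicate 4 and the highest without lenalidomide replicate 2. The unadjusted p then lay between 0.000497 and 0.0347 in the same test, and SMG1 did not pass after adjustment in any of these fits.

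PABPC1 and CNOT1, which had the highest log2 fold changes of their lists, were high in the same libraries. PABPC1, the poly(A)-binding protein that meets eRF3 at termination, had 1084, 1054, 1164 and 1220 CPM with DMSO and 1154, 1097, 1643 and 1817 CPM with lenalidomide. For PABPC1 lenalidomide replicates 3 and 4 lay above all other libraries, while replicates 1 and 2 lay inside the DMSO range. CNOT1, the scaffold of the main deadenylase complex, was also highest in replicates 3 and 4, at 592.4 and 616.7 CPM, against 468.3 to 535.8 CPM in the other 6 libraries. Without those replicates together the log2 fold changes were -0.0067 for PABPC1 and 0.018 for CNOT1, against 0.34 and 0.14 with all 8 libraries. For both genes those were the highest libraries, so leaving them out lowers the values in any case. Some other genes of neighbouring roles were low in 1 of them: MAGOH and RNPS1 of the exon junction complex and SMG8 of the SMG1 complex were lowest of the 8 libraries in lenalidomide replicate 4, at 37.11, 148.5 and 67.82 CPM. In the DMSO group too, replicates 3 and 4 were higher than replicates 1 and 2 for SMG1, PABPC1 and CNOT1. DMSO replicates 1 to 4 had 222.6, 215.8, 274.6 and 268.4 CPM for SMG1 and 508.1, 468.3, 535.8 and 524.7 CPM for CNOT1. Which replicates had swapped isotope labels is not known, so whether this order goes with the swap was not tested. The part of lenalidomide replicates 3 and 4 in the value of SMG1 was not tested either.

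The table holds 5 pseudogene copies of SMG1, which reads of this gene can share. SMG1P1 was 0.29 higher on the log2 scale with an unadjusted p of 0.0710 in the quasi-likelihood test of edgeR, SMG1P2 0.30 with 0.0407, SMG1P3 0.26 with 0.0698, SMG1P5 0.26 with 0.0252 and SMG1P7 0.044 with 0.848, and none passed after adjustment. Each copy was highest in lenalidomide replicate 4, as SMG1 was. SMG1P1, SMG1P2, SMG1P3 and SMG1P5 stood above each DMSO library in replicates 1 and 3 too, as SMG1 did. Without lenalidomide replicate 4 the log2 fold changes fell to 0.107 for SMG1P1, 0.161 for SMG1P2, 0.085 for SMG1P3 and 0.13 for SMG1P5. That was the highest library of each, so leaving it out lowers the values in any case. Counts of the 5 copies per 100 counts of SMG1 were 55.1, 64.2, 50.2 and 51.7 with DMSO and 56.9, 48.5, 45.2 and 54.3 with lenalidomide. These values overlapped between the groups. Of the 50-base windows of SMG1 18.9% occur in transcripts of other genes, SMG1P2 foremost with 11.4%, and how many such reads were kept under the default parameters cannot be told from the counts.

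**Figure D3:**
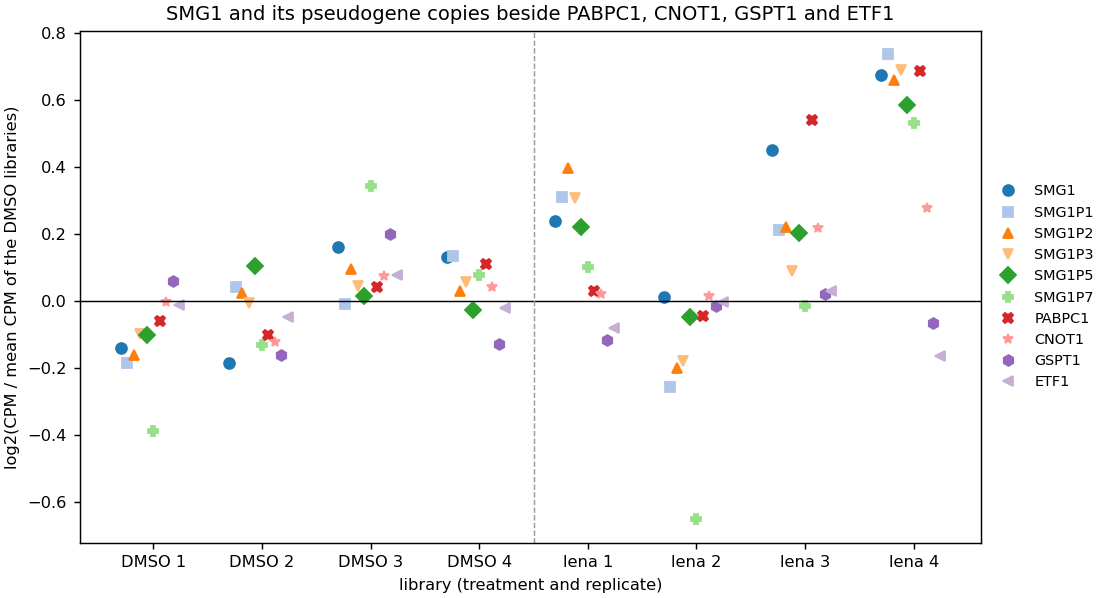
The log2 level relative to the DMSO mean in each of the 8 libraries, for SMG1 and its pseudogene copies and for PABPC1, CNOT1, GSPT1 and ETF1. PABPC1 stands high in lenalidomide replicates 3 and 4 beside SMG1. The pseudogene copies are highest in replicate 4, and 4 of the 5 stand above all DMSO libraries in replicates 1 and 3 as well. GSPT1 and ETF1 stand high in none of these.

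**Figure D4:**
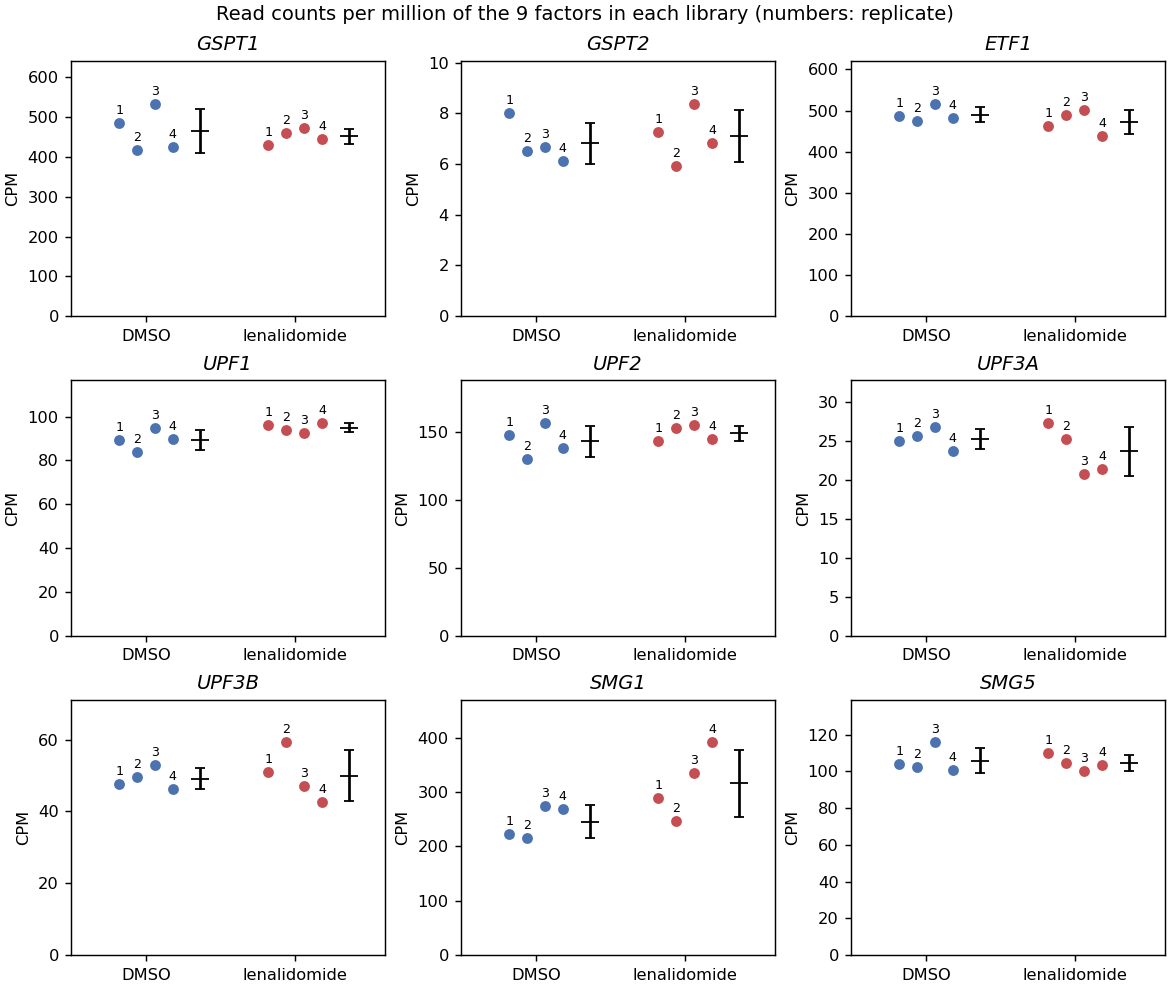
CPM of the 9 genes in each library, 4 DMSO and 4 lenalidomide, with the mean and SD of each group. The groups overlap in all 9, and for SMG1 the treated libraries run from 247.5 to 391.5 against 215.8 to 274.6 with DMSO.

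Ratios within a library do not depend on how that library was scaled, so the RNA levels of partners and paralogs were compared as ratios of RPKM. The 4 ratios were tested by two-sided exact permutation tests with Benjamini-Hochberg adjustment. GSPT2 stood at 0.0403 ± 0.00478 of GSPT1 with DMSO and 0.0430 ± 0.00585 with lenalidomide (SD, n = 4 each; exact p = 0.486, adjusted 0.648). ETF1 stood at 1.96 ± 0.164 times GSPT1 with DMSO and 1.93 ± 0.0794 with lenalidomide (n = 4 each; exact p = 0.914, adjusted 0.914). GSPT1 thus exceeded GSPT2 in every library, the GSPT2 to GSPT1 ratio lying between 0.0341 and 0.0485.

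UPF3A stood at 0.340 ± 0.00506 of UPF3B with DMSO and 0.314 ± 0.034 with lenalidomide (n = 4 each; exact p = 0.257, adjusted 0.514). The size of this ratio is uncertain, as 42.4% of the 50-base windows of UPF3A occur in other genes and none of those of UPF3B. It also depends on the exonic widths used, as do the sizes of the other ratios, though the comparison between groups does not. The treated values were 0.353, 0.281, 0.291 and 0.332, with replicate 1 above the DMSO range of 0.335 to 0.347 and the other 3 below it. SMG5 stood at 1.61, 1.69, 1.69 and 1.56 times UPF1 with DMSO and at 1.59, 1.54, 1.5 and 1.47 with lenalidomide. Treated replicates 2, 3 and 4 lay below each DMSO library, and the log2 difference was -0.10 (n = 4 each; exact p = 0.0571, adjusted 0.228).

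The other genes of the pathway were read from the same fit, by lists of role. Of 9 further decay factors (SMG6, SMG8, SMG9, NBAS, DHX34, RUVBL1, RUVBL2, MOV10 and PNRC2) 0 passed in either direction at either threshold. The log2 fold changes had a median of -0.019, from SMG8, a subunit of the SMG1 kinase complex, at -0.034 to MOV10, an RNA helicase that works with UPF1, at 0.10. Of 6 exon junction complex genes, which mark the splice sites that the decay pathway reads, 0 passed in either direction at either threshold. All 6 log2 fold changes were below 0 and small, from MAGOH at -0.049 to RNPS1 at -0.012, their median was above 0 without DMSO replicate 3 (0.000794) or lenalidomide replicate 4 (0.0108), and 9 of 9 decay factors and 6 of 6 junction genes had intervals within ±0.5.

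Of 11 genes of termination and ribosome recycling, among them ABCE1, the ATPase that splits the ribosome, 0 passed after adjustment and 1, PABPC1, was higher at an unadjusted p under 0.05. The lowest was JMJD4, an oxygenase that modifies eRF1, at -0.084, and the median was -0.012. Of 9 decay enzymes, which remove the poly(A) tail and the cap and degrade the message, 0 passed after adjustment and 1, XRN1, was higher at an unadjusted p under 0.05. At that threshold 3.26% of all genes were higher. XRN1, the main 5′ to 3′ exonuclease of the cytoplasm, was at 0.12 on the log2 scale with an unadjusted p of 0.034 in the quasi-likelihood test of edgeR, and was named after its values were seen. Its treated libraries all lay above its DMSO libraries, as for 1.24% of all genes, and its log2 fold change was 0.0855 to 0.137 over the alternatives. The enzymes had a median of 0.034, from DCP1A at -0.021 to CNOT1 at 0.14.

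Transcripts that the decay pathway is known to degrade were listed as well. Counts per gene do not separate synthesis from decay, so the output of the pathway itself was not measured here. The study counted intronic and exonic reads apart in these cells and reports no gene whose regulation after transcription was altered. Intronic counts were not used here. Of the 17 tested, which include the small nucleolar RNA host genes GAS5 and ZFAS1 and the stress response genes ATF3, ATF4 and DDIT3, 0 passed after adjustment. At an unadjusted p under 0.05, 0 were higher and 1, DDIT3, was lower, against 3.26% of all genes higher and 0.919% lower. DDIT3, a transcription factor of the unfolded protein response, had 5.38 ± 0.614 CPM with DMSO and 4.44 ± 0.427 with lenalidomide (SD, n = 4 each), which gave a log2 fold change of -0.28 with an unadjusted p of 0.0281 in the quasi-likelihood test of edgeR and an exact permutation p of 0.0571. In 3 of 4 treated libraries its level lay below each DMSO library. The highest was UPP1, uridine phosphorylase, at 0.15. The 17 had 9 log2 fold changes above 0 and 8 below and a median of 0.0028, near that of all genes tested.

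Of 10 splicing factor genes whose poison exons send part of their RNA to decay (SRSF1 to SRSF7, SRSF11, TRA2A and TRA2B), 0 passed in either direction at either threshold. The median was -0.029, from SRSF5 at -0.099 to SRSF6 at 0.045. Counts per gene sum the productive and the poison exon forms, so a change in the share of one form was not measured.

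**Figure D5:**
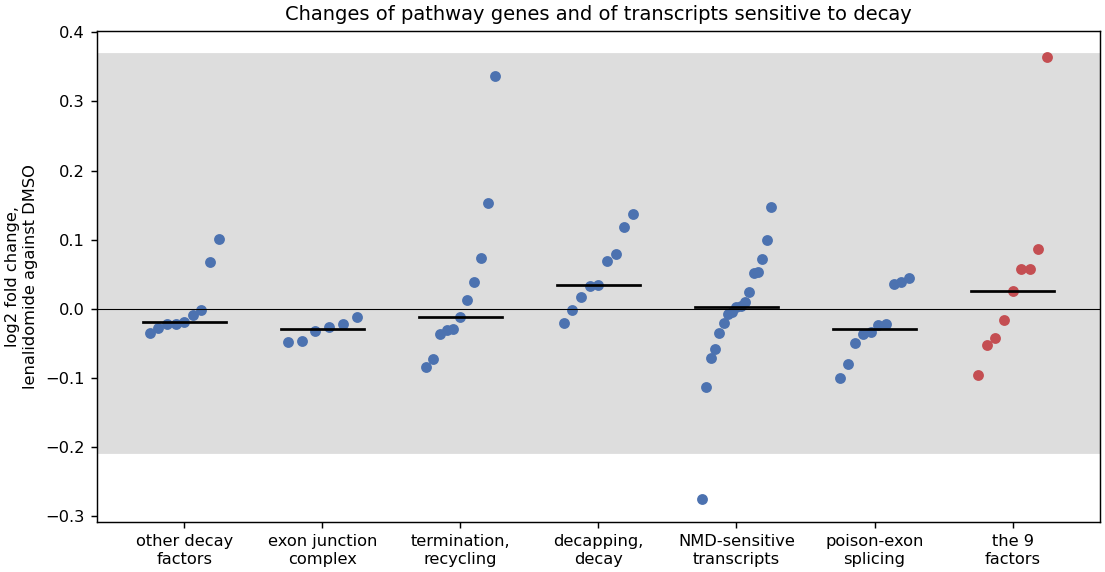
The log2 fold change of each gene tested, lenalidomide over DMSO, for the 9 genes and the 6 lists of neighbouring roles, with black bars at the medians. The grey band spans the middle 95% of all genes tested, -0.208 to 0.369, and DDIT3 at -0.28 lies outside it.

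The genes whose profile over the 8 libraries lay nearest to that of GSPT1 were PPFIBP1, HNRNPU and CLIP1, among 9092 genes whose mean CPM was 10 or more. Likeness was the root mean square difference of log2 CPM centred on each gene's mean, which was 0.030, 0.031 and 0.032 for the 3 genes. A group difference near that of GSPT1 follows from this choice. All 4 profiles share the libraries and their scaling.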

How the data were processed

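RNA of Hct116 cells was measured in 8 libraries, 4 with DMSO and 4 with 30 µM lenalidomide for 16 h. Libraries were made from total RNA with the ScriptSeq v2 kit. Per the study's methods, the authors aligned reads to hg19 (GRCh37) with spliced alignment and counted them per UCSC known gene with QuasR at default parameters, and deposited raw counts per gene without normalization. The submitters' processing notes name bcl2fastq 2.17. The version of QuasR and the read length are not given in the sources used here, and no strand setting is named apart from the default. The exonic width of each gene was deposited beside the counts. Of 23459 rows, 70 without a symbol held 0.0223% of the counts and were kept.

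The count analysis used edgeR 4.0.16 in R 4.3.3 (filterByExpr with a minimum count of 10, TMM scaling, glmQLFit and glmQLFTest) and Benjamini-Hochberg adjustment over 13925 genes at a threshold of 0.05. CPM and RPKM used TMM-scaled library sizes. Intervals are at 95%. Single values were compared with exact permutation tests. The scripts were tested on simulated counts. Totals of 28218471 to 37473413 counts a library set the counting error, and without molecular identifiers PCR copies count as separate reads. Positions, exon overlaps and shared 50-base windows come from GENCODE on GRCh37, which the authors did not use for counting.

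The members and gene lists were chosen with earlier results of these data known, and some genes of the lists are not reported here. Genes named are the 9 members, their pseudogene copies in the table, the highest and the lowest of each list, the 3 nearest to GSPT1 in profile, and XRN1, added after its values were seen. Alternatives were RLE scaling, DESeq2 1.42.0, the likelihood ratio test, other filters, a replicate block and leaving out each library, and, chosen after seeing the data, leaving out lenalidomide replicates 3 and 4 together.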

Additional observations from a re-analysis of the deposited data

How the results depend on the processing

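Of the 9 factors, 0 passed at an adjusted p under 0.05 in all 15 alternatives. Over all genes, 2 passed with edgeR's quasi-likelihood test, 9 with DESeq2, 12 by likelihood ratio, 4 when all genes with 1 or more counts were kept and 1 to 2 with each library left out. Nothing in the labels ties same-numbered libraries, though the study swapped isotope labels in 2 replicates of each group and the numbers may carry that. The deviations of same-numbered libraries, over all genes tested, correlated at 0.028, -0.024, 0.031 and 0.27, and the main fit did not take them as pairs. These correlations cannot show or exclude a split of 2 replicates against 2 in each group, which is how the labels were swapped. For SMG1, replicates 3 and 4 were the highest in both groups. With the replicate block 6 genes passed. In edgeR's quasi-likelihood test the block gave SMG1 an unadjusted p of 6.17e-05, against 0.0089 in the main fit. Its adjusted p with the block was 0.0622 in the same test, the lowest over its alternatives, which reached 1.

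With each library left out the log2 fold changes ran from -0.0915 to 0.0276 for GSPT1, -0.0338 to 0.141 for GSPT2, -0.0424 to 0.0261 for SMG5, -0.0667 to 0.0956 for UPF3B, -0.152 to 0.222 for SMG1P7, -0.0369 to 0.0182 for RNPS1, -0.114 to 0.0465 for MAGOH, -0.0824 to 0.0256 for PPFIBP1, -0.0809 to 0.0291 for HNRNPU and -0.0839 to 0.00565 for CLIP1. The log2 difference of ETF1 to GSPT1 ran from -0.061 to 0.0169. That of UPF3A to UPF3B ran from -0.179 to -0.0689, the former without lenalidomide replicate 1, where the exact permutation p was 0.0286, the smallest that 3 against 4 libraries allow.

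Without lenalidomide replicates 3 and 4 together the log2 fold change changed sign for GSPT2 (-0.0503), UPF3A (0.0543), SMG5 (0.0217), SMG1P7 (-0.229), SMG8 (0.0202), RNPS1 (0.0156), MAGOH (0.00234) and PABPC1 (-0.00673), as did the log2 difference of ETF1 to GSPT1 (0.0161) and the medians of the decay enzymes (-0.0292), the further decay factors (0.03) and the exon junction complex (0.00899). The cause was not tested. No gene or ratio named here was past the threshold in either fit. List medians near 0 also changed sign elsewhere. With each library left out they ran from -0.0563 to 0.0108 for the exon junction complex, -0.0281 to 0.018 for the further decay factors, -0.0239 to 0.000439 for termination and recycling and -0.0235 to 0.0331 for transcripts sensitive to decay. The last was also below 0 with RLE scaling (-0.0011), DESeq2 (-0.00118), genes of 1 or more counts (-0.00514) and the block (-0.00123). With 4 libraries a group and counts of 197 to 299 a library, GSPT2 is the factor whose depth limits it most.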
